A study of Mus musculus with 10 samples.

Results

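The lining cells of the liver sinusoids were followed through 40 marker genes on expression arrays of mouse liver. The genes were taken by name: 17 mark sinusoidal endothelium and 23 mark endothelium in general. A gene was read from every gene probe that carried its symbol, or an older symbol of it, in the scanner files. All 40 had a probe, and all 40 were among the 15806 genes tested, 38 of them with signal well above background on all 10 arrays. The exceptions were Rspo3, detected on 3 arrays of wild type and 4 of knockout, and Gata4, detected on 4 arrays of each group.

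The arrays carried Cy3-labelled total RNA from whole liver of C57BL/6 mice aged 1 year. The labels give 5 samples as wild type (WT1 to WT5) and 5 as lacking TAK1/TR4, an orphan nuclear receptor encoded by Nr2c2 (KO1 to KO5), in a study of fatty liver, inflammation and insulin resistance in obesity. The sources used here do not state how the gene was disrupted, the diet or whether each array held RNA of a separate mouse, so the p-values cover only how far these samples differ among themselves. Endothelial cells are a minority of liver cells, and in RNA of whole liver fewer cells of a type and less RNA per cell cannot be told apart.

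Sinusoidal endothelial cells are the fenestrated lining of the liver capillaries. They lack an ordinary basement membrane, take up waste macromolecules, immune complexes and glycoproteins from portal blood through scavenger, lectin and Fc receptors, and send Wnt, R-spondin and BMP signals to the hepatocytes beneath them. They carry the junction proteins, VEGF receptors and angiopoietin receptors of all endothelium as well. When they lose their specialised state, a change called capillarisation, sinusoidal markers are known to fall while general endothelial markers remain or rise.

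Of the probes on an array 51.0% to 62.4% exceeded background, and the 75th percentile of signal lay between 950.3 and 1344. Correlations between arrays across genes were 0.988 to 0.994 in wild type and 0.965 to 0.988 in knockout. Slide 1 held WT1 to WT4, slide 2 held WT5 together with KO1, KO2 and KO3, slide 3 held KO5, and slide 4, scanned on a later day, held KO4. At the locus of the deleted gene (chromosome 6, mm7), both probes named Nr2c2 had signal above background on each of the 10 arrays. One was higher in knockout by 0.44 ± 0.11 on the log2 scale (limma, adjusted p = 0.0427 over probes) and the other differed by 0.36 ± 0.13, in the same direction (adjusted p = 0.144 over probes). Another probe lies in a cDNA that the files list in the opposite direction to both. It was detected on all 5 arrays of wild type and on 0 of knockout. It was at least 5.25-fold lower in knockout, a bound that was not tested. The sources used here do not give the deleted part, so whether any of these probes checks the labels was not determined, and groups are named here as labelled.

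WT5 and KO3 stood apart in the endothelial genes. WT5 was the lowest wild-type array for 32 of 40 members, against 19.6% of all genes tested. KO3 was the highest knockout array for 30 of 40, against 24.4%. Both held for 27 members, or 67.5%, against 5.83% of all genes. Signal is given throughout as log2 of the processed intensity relative to the 75th percentile of the array, and a difference as knockout minus wild type on that scale with the standard error of the fit. The main results are repeated without WT5 and KO3, a choice made after their values were seen, and within slide 2, which holds WT5 and no other wild-type array. KO2, which stood apart from the other knockout arrays for Vwf and for some hepatocyte markers given below, was kept in both.

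Most members were higher in knockout, by small amounts. Differences were positive for 39 of 40 members, against 51.9% of all genes tested, and ran from 0.14 for Plvap to 1.85 for Cd209b. Lyve1 was at -0.51. The members were read on the same arrays and are not independent, so this count was not set against chance. A gene is said to have changed where limma gave an adjusted p under 0.05 over all genes, which held for 934 genes (5.91%), 384 of them higher (2.43%) and 550 lower (3.48%). Of the 17 sinusoidal members 4 rose (Cd209b, Fcgr2b, Dnase1l3 and Flt4) and 0 fell. Of the 23 pan-endothelial members 0 changed by that test, and 12 were higher at an unadjusted p under 0.05. The same unadjusted count was 10 for the sinusoidal members, and 11.6% of all genes were higher at that level. The median difference was 0.40 over the sinusoidal members and 0.33 over the pan-endothelial members, beside 0.01 over all genes; the difference between the lists was not tested.

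**Figure D1:**
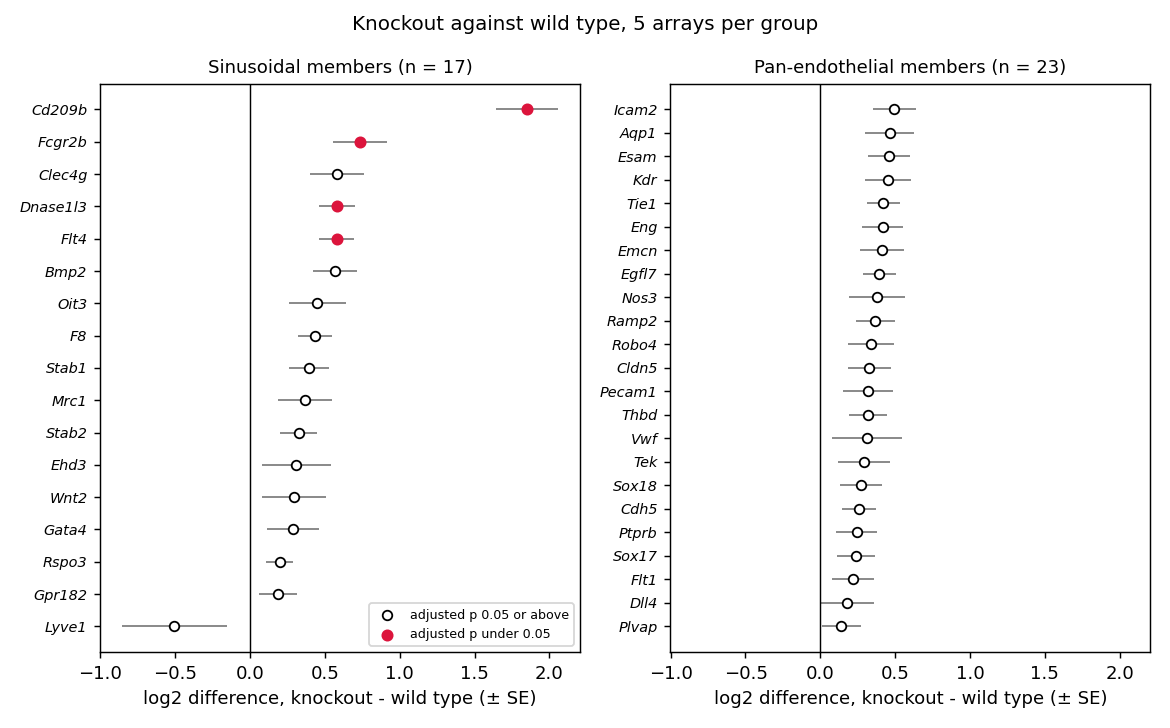
Log2 difference of each of the 40 members, knockout minus wild type, with the standard error of the fit (n = 5 arrays per group), for the 17 sinusoidal (left) and 23 pan-endothelial (right) genes. Filled points have an adjusted p under 0.05; all points except Lyve1 lie right of 0, and Cd209b lies apart at 1.85.

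The lowest knockout array exceeded the highest wild-type array for 7 sinusoidal and 4 pan-endothelial members, and for 4.18% of all genes. The 7 were Cd209b, Fcgr2b, Clec4g, Dnase1l3, Flt4, Bmp2 and F8, and the 4 were Emcn, Tie1, Esam and Aqp1. No member had all knockout arrays below all wild-type arrays, which 5.43% of all genes had. Without WT5 and KO3 the difference stayed positive for 39 of 40 members, against 51.3% of all genes, and the medians were 0.23 and 0.22. Of the 4 calls, Cd209b alone was then kept. Within slide 2 the difference was positive for 38 of 40 members, against 47.3% of all genes, with medians of 0.80 and 0.69. The negative members there were Gata4 (-0.02) and Plvap (-0.10). WT5, the single wild-type array of slide 2, was the lowest wild-type array for 32 of 40 members, so these values are no separate check on the difference.

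Scavenger and lectin receptors clear ligands from sinusoidal blood, and 2 of the 7 members of this kind rose. Cd209b encodes a C-type lectin of the DC-SIGN family that binds glycans on microbes and serum glycoproteins. Its signal stood at -2.29, -2.49, -2.69, -2.58 and -3.33 on WT1 to WT5 and at -1.12, -1.09, -0.35, -0.69 and -0.86 on KO1 to KO5. All knockout arrays were above all wild-type arrays, KO3 was the highest and WT5 the lowest. Cd209b rose 3.61-fold (1.85 ± 0.21, adjusted p = 0.00171, exact permutation p = 0.0079, the smallest that 5 against 5 arrays can give). Any gene whose groups do not overlap has this permutation p, so here and below it adds nothing to the separation of the arrays. Cd209b was the one member to change by more than 2-fold. The difference was 1.57 without WT5 and KO3 (adjusted p = 0.00361) and 2.48 within slide 2 (adjusted p = 0.62 with 1 wild-type array), and the adjusted p ran from 0.000712 to 0.62 over 22 alternatives.

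A second Cd209b probe was read beside the first. It has 1 reading frame open over its 60 bases, and the files place it at chr8_random:3900574-3900633 (mm7). It was detected on 1 array of wild type and 4 of knockout. It was therefore kept through the knockout arrays alone and is no independent check on the first probe. It was at least 1.55-fold higher in knockout, or at least 1.16-fold within slide 2, and these bounds were not tested. Probes for Fcgr2b, F8 and Tie1 are shown with this Cd209b probe as examples from the receptors and clotting factors. Fcgr2b passed the test over all genes, whereas F8 and Tie1 came close to the threshold and did not pass. The Fcgr2b probe shown is a further kept probe (difference 0.743), not the one whose signals are given below. The F8 probe spans 889 bases of the genome and so crosses a splice junction.
Cd209b probe: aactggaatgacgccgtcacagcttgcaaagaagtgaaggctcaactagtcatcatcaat
Fcgr2b probe: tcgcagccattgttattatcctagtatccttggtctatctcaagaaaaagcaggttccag
F8 probe: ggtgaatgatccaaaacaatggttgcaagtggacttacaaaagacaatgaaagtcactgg
Tie1 probe: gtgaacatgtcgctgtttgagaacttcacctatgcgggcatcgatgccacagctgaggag

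Cd209b lies in a cluster of related lectin genes on chromosome 8, and its neighbours were looked at in the gene order of a later mouse assembly (GRCm38.p6). Cd209a and Cd209e were above background on 1 knockout array each, Cd209g on 1 wild-type array, and Cd209c, Cd209d and Fcer2a on 0 of 10. Trappc5 and Evi5l, at the edges of the cluster, were measured on nearly all arrays. Their probes differed by -0.13 to 0.38 and did not pass the test (lowest adjusted p = 0.423 over probes). Cd209f was not analysed here, as no probe carried its name. Among the lectin genes of the cluster that had a probe, Cd209b and Clec4g were the ones tested.

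Clec4g encodes LSECtin, a lectin of sinusoidal and lymph node endothelium that binds glycans on viruses and T cells. Its signal stood at 3.38, 3.50, 3.57, 3.78 and 3.18 on WT1 to WT5 and at 3.79, 4.19, 4.66, 3.78 and 3.90 on KO1 to KO5. The groups did not overlap, and the lowest knockout array lay just above the highest wild-type array (KO4 at 3.781, WT4 at 3.777). The difference was 0.58 ± 0.18 and did not pass the test (adjusted p = 0.088, exact permutation p = 0.0079), with 0.36 without WT5 and KO3.

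Fcgr2b encodes the inhibitory IgG receptor, by which sinusoidal cells take up small immune complexes; B cells and macrophages carry it as well. The Fcgr2b signal stood at 1.90, 1.78, 1.75, 1.71 and 1.06 on WT1 to WT5 and at 2.14, 2.69, 2.66, 2.10 and 2.31 on KO1 to KO5. KO2 and KO3 were high, WT5 was low, and the groups did not overlap. Fcgr2b rose 1.66-fold (0.74 ± 0.18, adjusted p = 0.0431, exact permutation p = 0.0079), and its 3 kept probes differed by 0.74 to 0.79. This call lay close to the threshold: leaving out any 1 array other than KO1 ended it (adjusted p up to 0.087), and without WT5 and KO3 the difference was 0.52 (adjusted p = 0.0951).

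Stab1 and Stab2 encode the stabilins, scavenger receptors for modified lipoproteins and matrix fragments. Stab2 was measured at 1.499, 1.49, 1.33, 1.40 and 1.06 on WT1 to WT5 and at 1.70, 1.44, 2.04, 1.68 and 1.55 on KO1 to KO5. KO3 was the highest array and WT5 the lowest, and KO2 lay among the wild-type arrays. The Stab2 difference was 0.32 ± 0.13 (adjusted p = 0.158) and that of Stab1 0.40 ± 0.13 (adjusted p = 0.111). Mrc1, the mannose receptor that clears collagen fragments and glycoproteins, differed by 0.37 ± 0.18 (adjusted p = 0.244); macrophages express Mrc1 and Stab1 too.

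Lyve1, a hyaluronan receptor of sinusoidal and lymphatic endothelium, was the one member on the negative side. It stood at -0.92, -0.52, -0.69, -1.502 and -1.44 on WT1 to WT5 and at -1.62, -1.68, -0.24, -1.87 and -2.20 on KO1 to KO5. KO3 was the highest of all 10 arrays while the other 4 knockout arrays were below every wild-type array. The difference was -0.51 ± 0.35 and did not pass the test (adjusted p = 0.414, exact permutation p = 0.24). A second Lyve1 probe differed by -0.68 ± 0.26 (adjusted p = 0.152 over probes). Without WT5 and KO3 the difference was -0.93 (adjusted p = 0.0793), and within slide 2 it was 0.26, on the other side of 0.

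**Figure D2:**
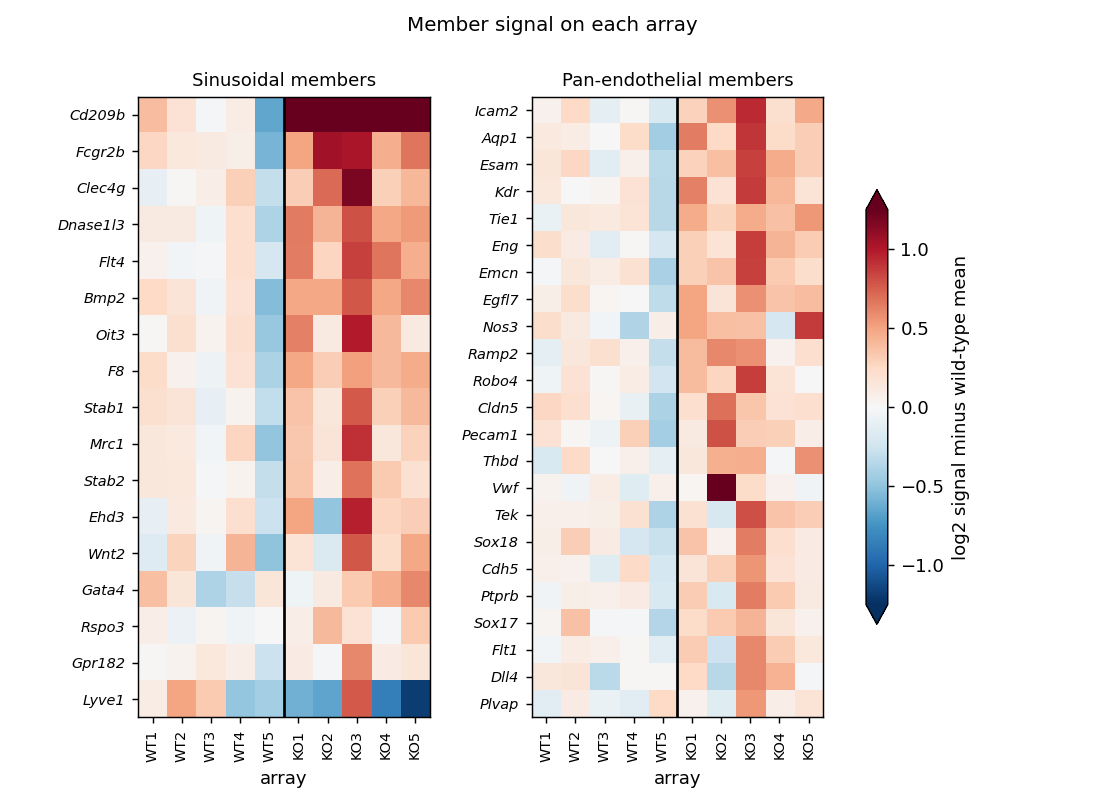
Log2 signal of each member on each array minus the mean of the 5 wild-type arrays, red where higher and blue where lower, with colours capped at the ends of the scale. The Cd209b row is beyond the cap on the knockout arrays, the WT5 column is mostly blue and the KO3 column is red in nearly every row, and Lyve1 is blue on 4 of 5 knockout arrays.

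The members include 4 secreted or presented ligands, and none of these passed the test (limma; 1 of 4 at an unadjusted p under 0.05). Bmp2, a ligand that sinusoidal cells send to hepatocytes to set hepcidin and so iron export, stood at -1.47, -1.55, -1.76, -1.53 and -2.26 on WT1 to WT5 and at -1.23, -1.23, -0.94, -1.23 and -1.12 on KO1 to KO5. All knockout arrays were above all wild-type arrays, and 3 of them were at -1.23. The difference was 0.57 ± 0.15 (adjusted p = 0.0514, exact permutation p = 0.0079) and 0.38 without WT5 and KO3 (adjusted p = 0.0682). It passed the threshold in 4 of 22 alternatives, with adjusted p from 0.0336 to 0.862.

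Wnt2 and Rspo3 are made by the endothelium of the central zone and set the Wnt-dependent gene programme of nearby hepatocytes. Wnt2 stood at 0.22, 0.66, 0.34, 0.81 and -0.13 on WT1 to WT5 and at 0.55, 0.20, 1.16, 0.61 and 0.86 on KO1 to KO5. The groups overlapped widely, with WT4 above all knockout arrays except KO3 and KO5, and the difference was 0.29 ± 0.21 (adjusted p = 0.433). Rspo3 was dim, at -4.12, -4.28, -4.17, -4.25 and -4.21 on WT1 to WT5 and at -4.12, -3.80, -4.02, -4.22 and -3.88 on KO1 to KO5. Its difference of 0.20 ± 0.09 (adjusted p = 0.211) lies near the background of the arrays and was -0.0019 after normexp and quantile normalisation. Dll4, a Notch ligand of arterial and sprouting endothelium, differed by 0.18 ± 0.18 (adjusted p = 0.576).

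Growth factor and guidance receptors make up 10 members, of which Flt4 alone passed the test. Flt4 encodes VEGFR3, the receptor for VEGF-C on lymphatic and fenestrated endothelium. It stood at -3.51, -3.60, -3.58, -3.35 and -3.77 on WT1 to WT5 and at -2.92, -3.29, -2.70, -2.90 and -3.11 on KO1 to KO5. KO3 was the highest, KO2 the lowest knockout array, and the groups did not overlap. Flt4 rose 1.49-fold (0.58 ± 0.12, adjusted p = 0.0248, exact permutation p = 0.0079). Leaving out WT1, WT2, WT3, WT5 or KO4 ended the call (adjusted p up to 0.0699), and the difference was 0.45 without WT5 and KO3 (adjusted p = 0.0807). After normexp and quantile normalisation it was 0.24 (adjusted p = 0.134).

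Kdr encodes VEGFR2, the main signalling receptor for VEGF-A in endothelium. It stood at 1.96, 1.82, 1.86, 2.01 and 1.48 on WT1 to WT5 and at 2.45, 2.001, 2.70, 2.24 and 2.001 on KO1 to KO5. KO1 and KO3 were high, and KO2 and KO5 lay just below WT4. The difference was 0.45 ± 0.15 (adjusted p = 0.115, exact permutation p = 0.024). Flt1, the VEGF decoy receptor, differed by 0.22 ± 0.14 (adjusted p = 0.376).

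The orphan receptor Tie1, a partner of the angiopoietin receptor, came close to the threshold. It stood at -2.43, -2.20, -2.22, -2.18 and -2.69 on WT1 to WT5 and at -1.88, -2.07, -1.88, -1.98 and -1.80 on KO1 to KO5. The groups did not overlap, and KO3 was not the highest array for this gene. The difference was 0.42 ± 0.11 (adjusted p = 0.0505, exact permutation p = 0.0079), with 0.32 without WT5 and KO3 (adjusted p = 0.114); it passed the threshold in 4 of 22 alternatives. Tek, the angiopoietin receptor itself, differed by 0.29 ± 0.18 and Ptprb, the phosphatase that restrains it, by 0.24 ± 0.14, neither past the test. The other receptors without a call were Eng (0.42 ± 0.14), a coreceptor for BMP9, Robo4 (0.34 ± 0.15), Gpr182 (0.19 ± 0.12) and Ramp2 (0.37 ± 0.13), with adjusted p from 0.103 to 0.398.

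Of 7 junction and surface proteins 0 passed the test, with 5 higher at an unadjusted p under 0.05 by limma. Pecam1, the adhesion protein CD31, stood at -2.66, -2.83, -2.91, -2.55 and -3.27 on WT1 to WT5 and at -2.73, -2.05, -2.54, -2.55 and -2.76 on KO1 to KO5. KO2 was the highest array for Pecam1, WT5 the lowest, and the other knockout arrays lay within or at the top of the wild-type range. The difference was 0.32 ± 0.17 (adjusted p = 0.277, exact permutation p = 0.1). Cdh5, or VE-cadherin, which forms the adherens junctions of endothelium, stood at 0.67, 0.65, 0.44, 0.84 and 0.38 on WT1 to WT5 and at 0.76, 0.90, 1.15, 0.78 and 0.70 on KO1 to KO5. Here WT4 lay above 3 of 5 knockout arrays, and the difference was 0.26 ± 0.11 (adjusted p = 0.203).

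Emcn, a sialomucin of capillaries and veins, stood at -0.42, -0.26, -0.30, -0.21 and -0.80 on WT1 to WT5 and at -0.10, -0.04, 0.46, -0.07 and -0.18 on KO1 to KO5. KO3 was far above the other knockout arrays, yet all of them were above the highest wild-type array. The difference was 0.41 ± 0.15 (adjusted p = 0.134) and was 0.20 without WT5 and KO3. Esam, a tight junction adhesion molecule, stood at -0.08, 0.03, -0.37, -0.16 and -0.57 on WT1 to WT5 and at 0.06, 0.15, 0.62, 0.23 and 0.08 on KO1 to KO5. Its groups did not overlap and lay close together, with KO1 at 0.06 above WT2 at 0.03, and the difference was 0.46 ± 0.14 (adjusted p = 0.0891). Icam2, an adhesion molecule for leukocytes, had the largest pan-endothelial difference, 0.49 ± 0.14 (adjusted p = 0.0714). Cldn5, a tight junction claudin, was at 0.33 ± 0.14 and Plvap, a diaphragm protein of endothelium, at 0.14 ± 0.13.

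Secreted enzymes, clotting factors and regulators of vessel tone gave 1 call among 7 members. Dnase1l3 encodes a secreted DNase that degrades DNA in microparticles and chromatin. It stood at 0.82, 0.81, 0.65, 0.91 and 0.31 on WT1 to WT5 and at 1.35, 1.13, 1.499, 1.18 and 1.24 on KO1 to KO5. The groups did not overlap, with KO3 and KO1 the highest and WT5 the lowest. Dnase1l3 rose 1.49-fold (0.58 ± 0.12, adjusted p = 0.0264, exact permutation p = 0.0079). Leaving out WT2, WT3 or KO5 ended the call (adjusted p up to 0.0598), and the difference was 0.43 without WT5 and KO3 (adjusted p = 0.0533).

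F8 encodes clotting factor VIII, made in the liver mainly by sinusoidal cells. It stood at -0.76, -0.94, -1.06, -0.82 and -1.39 on WT1 to WT5 and at -0.51, -0.69, -0.48, -0.59 and -0.53 on KO1 to KO5. The 5 knockout arrays were close together, with an SD of 0.08 against 0.25 in wild type, and lay above all wild-type arrays. The difference was 0.43 ± 0.12 (adjusted p = 0.0567, exact permutation p = 0.0079), with 0.31 without WT5 and KO3.

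Vwf encodes von Willebrand factor, a marker of larger vessels and of capillarised sinusoids that carries factor VIII in plasma. It stood at 0.45, 0.35, 0.50, 0.24 and 0.46 on WT1 to WT5 and at 0.42, 1.70, 0.63, 0.46 and 0.36 on KO1 to KO5. KO2 was far above the other 9 arrays, which lay between 0.24 and 0.63, and a second Vwf probe was likewise highest on KO2. The difference was 0.31 ± 0.23 (adjusted p = 0.448). Thbd, the thrombomodulin gene, Nos3, the endothelial nitric oxide synthase, Egfl7, a secreted matrix protein, and Oit3, a secreted protein of liver, differed by 0.32 ± 0.13, 0.38 ± 0.19, 0.39 ± 0.11 and 0.45 ± 0.19, with adjusted p from 0.0698 to 0.252.

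**Figure D3:**
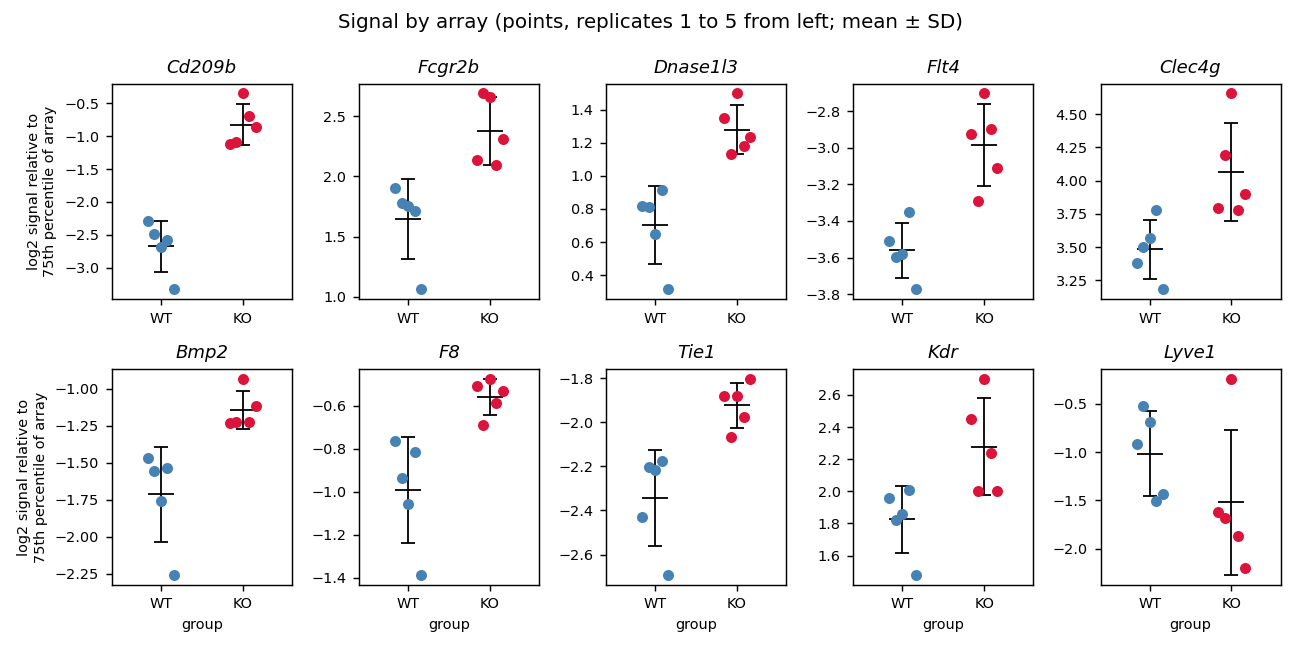
Log2 signal relative to the 75th percentile of the array for 10 members, each array as a point (replicates 1 to 5 from left to right within a group), with the mean and SD of the 5 arrays. Cd209b separates most widely, WT5 is the lowest wild-type point in all panels but Lyve1, and for Lyve1 KO3 stands above 4 low knockout arrays.

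The remaining members are 3 transcription factors, a water channel and a trafficking protein. Gata4, which specifies sinusoidal identity, differed by 0.29 ± 0.17, and Sox17 and Sox18, factors of arterial and general endothelial programmes, by 0.24 ± 0.13 and 0.27 ± 0.14, with none past the test. Aqp1, a water channel of endothelium that bile ducts carry too, stood at 3.83, 3.81, 3.70, 3.94 and 3.27 on WT1 to WT5 and at 4.35, 3.96, 4.60, 3.94 and 4.02 on KO1 to KO5. Its groups did not overlap, though KO4 lay only just above WT4 (3.943 against 3.938). The difference was 0.46 ± 0.16 (adjusted p = 0.125) and 0.25 without WT5 and KO3. Ehd3, an endocytic recycling protein, was lowest of all arrays on KO2 and differed by 0.31 ± 0.23 (adjusted p = 0.448).

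The sinusoidal and pan-endothelial lists were then followed from array to array. The median of the sinusoidal members, relative to the wild-type mean of each gene, was 0.12, 0.13, -0.02, 0.18 and -0.39 on WT1 to WT5 and 0.36, 0.16, 0.78, 0.32 and 0.41 on KO1 to KO5. That of the pan-endothelial members was 0.06, 0.14, 0.01, 0.06 and -0.28, and 0.29, 0.28, 0.60, 0.23 and 0.21. In both lists WT5 was the lowest and KO3 the highest. KO2 was the lowest knockout array in the sinusoidal list and lay below WT4 there, while no pan-endothelial knockout median overlapped the wild-type medians. The wild-type SD of the medians was 0.23 and 0.16, and the knockout SD was the same to the printed digits.

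**Figure D4:**
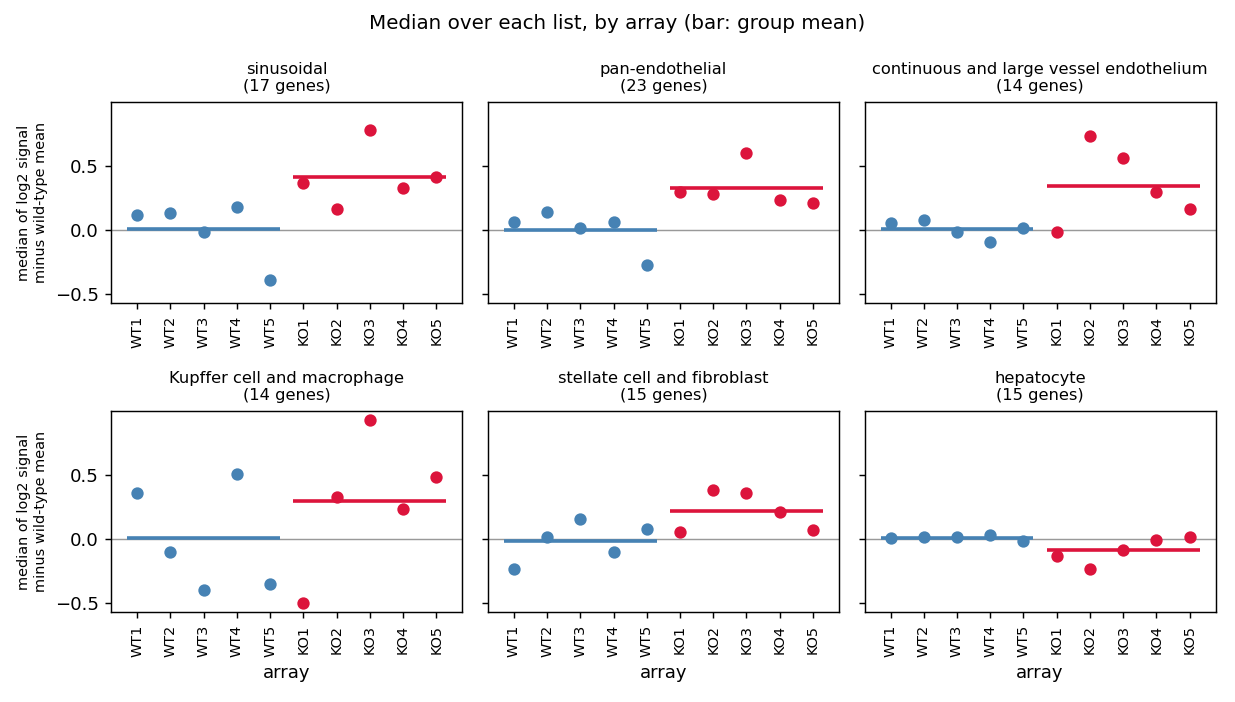
Median over each gene list of log2 signal minus the wild-type mean, by array, for 2 endothelial member lists and 4 lists of other liver cells and vessels; bars are group means. The knockout points of both member lists lie above 0, with KO3 highest and WT5 lowest, whereas the macrophage points of both groups are widely scattered and the hepatocyte points of KO1, KO2 and KO3 lie below all wild-type points.

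Markers of other cells were read in the same fit. Of 14 markers of continuous and large vessel endothelium Cav2, a caveolar protein, rose (0.70 ± 0.15, adjusted p = 0.0271) and 0 fell, with a median of 0.36. By array the median was 0.06, 0.08, -0.02, -0.09 and 0.01 on WT1 to WT5. It was -0.02, 0.73, 0.56, 0.30 and 0.16 on KO1 to KO5, so KO1 lay within the wild-type range and KO2 was the highest. Central-zone and portal-zone endothelial markers, lists of 6 and 5 tested genes that share Wnt2, Rspo3, Thbd and Dll4 with the members, had 0 calls each and medians of 0.25 and 0.09; the smallest p went to Kit (0.78 ± 0.26) and Msr1 (0.85 ± 0.25), at adjusted p = 0.112 and 0.0764. At an unadjusted p under 0.05 these lists had 2 higher, and 1 higher and 1 lower. The other portal-zone genes tested differed by 0.18 (Dll4), 0.09 (Ltbp4), -0.06 (Efnb2) and -0.49 (Adgrg6). Which cells carry the Msr1 difference was not tested. Of 5 lymphatic markers 2 were tested, Reln (0.19 ± 0.13) and Prox1 (-0.02 ± 0.19), neither called by limma or under an unadjusted p of 0.05.

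Among macrophage markers 1 of 14 rose, the haemoglobin scavenger receptor Cd163 (0.91 ± 0.22, adjusted p = 0.0431), and Clec4f, a lectin of Kupffer cells, was next (0.72 ± 0.21, adjusted p = 0.0767). The macrophage median was 0.30, 0.64 within slide 2 and 0.10 without WT5 and KO3, where 0 of 14 were called by limma and the Cd163 call was lost. By array it was 0.36, -0.10, -0.39, 0.50 and -0.35 on WT1 to WT5 and -0.50, 0.32, 0.92, 0.23 and 0.48 on KO1 to KO5. KO3 was therefore the highest array for macrophage markers too, whereas KO1, the lowest for them, was above all wild-type arrays in both endothelial lists. The summed macrophage signal, in multiples of the 75th percentile of the array, ran from 71.9 to 148.3 in wild type and from 65.4 to 163.1 in knockout; Itgam did not pass the filter on dim probes. The part of macrophages in the differences of Cd209b, Fcgr2b, Mrc1, Stab1 and the other members, and of Msr1 in the portal-zone list, was not tested.

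Stellate and fibroblast markers had 0 calls among 15 (5 higher at an unadjusted p under 0.05 by limma; median 0.13), led by the matrix proteoglycan Lum (0.58 ± 0.20, adjusted p = 0.122). Hepatocyte markers had 0 among 15 (2 higher and 1 lower unadjusted; median -0.07), led by Pck1 (0.46 ± 0.13, adjusted p = 0.0593), and all 15 were well above background on all 10 arrays. By array the hepatocyte median was 0.01, 0.01, 0.02, 0.03 and -0.02 on WT1 to WT5 and -0.13, -0.23, -0.09, -0.01 and 0.01 on KO1 to KO5. KO1, KO2 and KO3 were thus below every wild-type array, and KO4 and KO5 were among them. KO2 was far below the other knockout arrays for Ass1 (5.17, the others from 7.14 to 7.48), Cps1 (5.41, the others from 6.73 to 6.93) and Tat (5.24, the others from 6.37 to 6.89). For Cyp2e1 it was instead the highest knockout array (7.47). B cell markers, which bear on Fcgr2b, had 0 calls among 4 by limma (0 unadjusted), the smallest p being that of Fcrla (-0.48 ± 0.35, adjusted p = 0.431). T and NK cell markers and cholangiocyte markers likewise had 0 calls among 6 each (0 unadjusted), with the smallest p for Klrb1c (-0.82 ± 0.38) and Spp1 (0.64 ± 0.29). In the platelet list Ppbp fell (-1.11 ± 0.25, adjusted p = 0.0313), 1 of 6, and the erythroid list had 0 calls among 4 by limma (2 lower unadjusted), led by Klf1 (-0.53 ± 0.19). The calls of Cd163, Ppbp and Cav2 were kept in 3, 4 and 5 of the 10 fits that left out 1 array, and all 3 were lost without WT5 and KO3.

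The ligands and partners of the member receptors were read next. Of 14 tested genes of VEGF, angiopoietin and related signalling, 2 rose and 1 fell. Nrp1, a coreceptor for VEGF-A and semaphorins, stood at 0.56, 0.02, 0.68, 0.88 and 0.48 on WT1 to WT5 and at 1.06, 1.95, 1.101, 1.85 and 1.603 on KO1 to KO5 and rose 1.98-fold (0.99 ± 0.21, adjusted p = 0.0284). Ephb4, the venous receptor for ephrin-B2, stood at -1.78, -1.97, -1.68, -1.51 and -2.03 on WT1 to WT5 and at -1.13, -1.05, -1.05, -1.03 and -1.14 on KO1 to KO5 and rose 1.64-fold (0.72 ± 0.10, adjusted p = 0.00441). The knockout arrays of Ephb4 were all close to one another and above all wild-type arrays, and the call was kept without each array in turn. Vegfb, a ligand of Flt1 that hepatocytes and other cells with many mitochondria make, stood at 2.81, 3.07, 2.85, 3.19 and 3.45 on WT1 to WT5 and at 2.60, 2.34, 2.68, 2.26 and 2.05 on KO1 to KO5 and fell 1.61-fold (-0.69 ± 0.15, adjusted p = 0.0315). Its groups did not overlap, and leaving out 1 array ended its call in 5 cases and that of Nrp1 in 6 (adjusted p up to 0.0805 and 0.071). Vegfa, the main ligand of Kdr, differed by 0.29 ± 0.10 (adjusted p = 0.11).

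Of 17 tested genes of BMP signalling 0 passed the test (2 higher and 1 lower at an unadjusted p under 0.05 by limma), and the smallest p was that of Hjv, the BMP coreceptor of hepatocytes (-0.41 ± 0.16, adjusted p = 0.149). Of 17 Wnt and R-spondin genes Fzd4, a Wnt and norrin receptor, fell (-0.76 ± 0.13, adjusted p = 0.013). Fzd4 stood at 1.36, 1.75, 1.59, 1.79 and 1.78 on WT1 to WT5 and at 1.02, 0.70, 1.200, 0.95 and 0.60 on KO1 to KO5, so that all knockout arrays were below all wild-type arrays, and the call was kept without each array in turn. Among 10 Notch genes 0 were called by limma (1 higher unadjusted), led by Rbpj (0.22 ± 0.09, adjusted p = 0.166). Of 15 other endothelial transcription factors Hhex rose 1.71-fold (0.77 ± 0.16, adjusted p = 0.0247), with signals of 3.62, 3.70, 3.31, 3.42 and 3.22 on WT1 to WT5 and 4.03, 4.16, 4.78, 4.01 and 4.16 on KO1 to KO5; hepatocytes express Hhex as well as endothelium. Leaving out 1 array ended this call in 3 cases (adjusted p up to 0.0576).

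The 250 bases before the transcription start were available from RefSeq (GRCm38.p6) as 23 windows of 21 members, and were searched on both strands for AGGAAG, a form of the core bound by ETS factors, which act at many endothelial promoters. It was present in 13 of 23 windows (56.5%), against 29.5% of all 32851 windows of that length. The nuclear receptor half-site AGGTCA, which is also part of the repeat given next, was present in 6 of 23 (26.1%) against 14.02%. A direct repeat of AGGTCA with any 1 base between the copies, of the kind TR4 is known to bind, was present in 0 of 23 against 0.0335%, which says only that these letters are absent from these windows. The windows of Cd209b (chr8:3926842-3927091, minus strand) and Clec4g (chr8:3720652-3720901, minus strand) are shown because these are the lectin genes of the cluster that were tested; capitals mark AGGAAG on either strand, 3 matches in each.
Cd209b promoter: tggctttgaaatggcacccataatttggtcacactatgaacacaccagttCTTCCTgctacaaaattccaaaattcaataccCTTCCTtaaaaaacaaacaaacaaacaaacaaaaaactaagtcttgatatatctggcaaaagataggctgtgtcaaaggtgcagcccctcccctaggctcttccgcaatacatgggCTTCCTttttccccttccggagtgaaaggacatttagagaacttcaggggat
Clec4g promoter: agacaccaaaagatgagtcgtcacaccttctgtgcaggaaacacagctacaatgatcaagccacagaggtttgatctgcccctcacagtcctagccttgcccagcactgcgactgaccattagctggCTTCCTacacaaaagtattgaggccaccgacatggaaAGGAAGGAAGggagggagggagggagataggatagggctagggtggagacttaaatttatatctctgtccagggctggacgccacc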

How the data were processed

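Per the file headers, the authors' image analysis of these one-colour arrays used version 9.5.1.1 of Agilent Feature Extraction (9.5 in the submitters' processing notes). Deposited intensity values are that program's processed signals, background-subtracted within each array and not normalised between arrays, and the deposited series table holds the same intensity values (largest difference 0). Probe coordinates are those of the files (build mm7).

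Here the intensities were log2-transformed without a pseudocount, and the 75th percentile of each array over non-control probes was subtracted. Outlier spots were set to missing and replicate spots averaged. Probes were kept where 4 or more of the 5 arrays of 1 group showed signal well above background, and the brightest kept probe stood for a gene. Names were updated through RefSeq (22951 probes by accession, 6659 by symbol, 3109 by older symbol, 8455 left as in the files). Lyve1, Gpr182, Esam and 1 Ptprb probe carry older names in the files. Of 67 member probes 55 were kept; of 15 further kept probes 14 had the sign of the chosen probe, the exception being a Ptprb probe (-0.18).

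Groups were compared over all genes with limma 3.58.1 in R 4.3.3, two-sided, with Benjamini-Hochberg adjustment. Single values were tested by exact permutation over all 252 splits (smallest p 0.0079). Groups that do not overlap give this smallest p by construction, so for them it is no further support. Where a probe was above background on few arrays of a group, the fold is a bound: the bright group's mean against, per array of the dim group, the lowest signal well above background or, where higher, the signal of the probe. The fit was also run on simulated arrays with independent noise for each gene and no slide effect. That run does not bear on slide effects or on differences that genes share. The members and lists were chosen with earlier results of these data known. Values by array are given for members called, for members whose groups do not overlap and for Pecam1, Cdh5, Kdr, Stab2, Lyve1, Clec4g, Wnt2, Rspo3 and Bmp2, and, chosen after its values were seen, for Vwf; of other lists the called genes (up to 4) or the gene with the smallest p are named, with a few more chosen after their values were seen. Alternatives were other normalisations, filters, probe rules, slide and replicate blocks and arrays left out. The number of arrays limits the precision.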

Additional observations from a re-analysis of the deposited data

Results flagged for a closer look

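In all, 8 values stood far from the other 4 of their group, among 84 groups examined. For these the gap to the nearest value was 0.71 to 0.80 of the range of the group. The groups are members and list medians read on the same arrays, so they are not independent and the count was not set against chance. In wild type, WT5 was low for Fcgr2b (1.06, the others from 1.71 to 1.90), Oit3 (0.43, the others from 0.91 to 1.103) and Tek (-2.29, the others from -1.85 to -1.72), and WT3 was low for Dll4 (-3.45, the others from -3.09 to -2.95). In knockout, KO3 was high for Mrc1 (1.59, the others from 0.82 to 1.01) and Emcn (0.46, the others from -0.18 to -0.04), and KO2 was high for Vwf (1.70, the others from 0.36 to 0.63). The pan-endothelial median on KO3 was 0.60, with the other knockout arrays from 0.21 to 0.29. Members varied more in knockout than in wild type for 26 of 40, and 78.5% of all genes did.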

How the results depend on the processing

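The count of 4 members called, all sinusoidal, was 2 with no scaling between arrays, 1 with no filter on dim probes, 1 with slide as a fixed block and 0 within slide 2. Calls over all genes fell too, from 384 higher and 550 lower of 15806 to 80 and 167 of 27670 with no filter, 13 and 22 with the fixed block, and 2 and 0 within slide 2. With slide as a random block the member count was 7, and with the percentile over detected probes 9, of which 2 and 3 were pan-endothelial in place of 0. Over all genes these gave 643 higher and 807 lower, and 521 and 485. With normexp and quantile normalisation, with quantile normalisation alone and with probes above background on all arrays, 1 pan-endothelial member was called. Leaving out 1 array gave 1 to 5 members, 1 to 4 of them sinusoidal and 0 to 2 pan-endothelial. Leaving out WT5 and KO3 gave 1, Cd209b, and 122 genes higher and 181 lower over all genes. The replicate numbers do not pair the samples (correlations of deviations -0.21 to 0.04 over 5 numbers, and no array correlated best with its own number); with them as a block 1 member was called, again Cd209b, and 60 genes were higher and 106 lower over all genes. Cd209b was called in 21 of 22 alternatives, which reuse the same arrays and are not separate checks.

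The medians of 0.40 and 0.33 became 0.80 and 0.69 with slide as a fixed block and within slide 2, where WT5 is the single wild-type array, and 0.30 to 0.47 and 0.29 to 0.38 without 1 array. Lyve1 changed sign to 0.26 with slide as a fixed block and within slide 2, and Rspo3 to -0.0019 with normexp and quantile normalisation; the cause was not tested. No scaling moved the median of all genes to 0.12 and gave 310 genes higher and 156 lower in place of 384 and 550. Slide 3 and slide 4 hold knockout arrays and slide 1 wild-type arrays, so on those slides and group cannot be told apart.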
